A study of Mus musculus with 20 samples.

Results

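Control mouse embryos were compared between the 4-cell and the early 8-cell stage, before compaction, across all genes. The comparison rests on 4 of the 20 RNA sequencing libraries of the study, which are 2 control libraries at each stage, chosen by their labels and read as raw counts. All embryos were of wild-type genotype, were cultured from the zygote in KSOM medium, and gave Smart-seq2 libraries of total RNA. The 16 other libraries are controls at the late 2-cell and late 8-cell stages, embryos with siRNA against P300 at all 4 stages, and late 8-cell siRNA embryos with I1394G or NaCr. The labels give neither the number of embryos in a library nor what the controls received in place of siRNA. They also do not say that libraries came from separate collections, so p-values measure only the spread between these samples.

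Between these stages the embryo makes the cleavage that doubles its cells again. By then it has turned on its own genome, most oocyte transcripts have been cleared, and the cells are still round and alike. Soon afterwards they flatten against one another, form an apical domain, and begin to divide into trophectoderm, the outer layer that makes the placenta, and inner cell mass, the source of the embryo proper. TEAD4, TFAP2C, GATA3 and CDX2 act in trophectoderm, and POU5F1, NANOG and SOX2 in the inner cell mass.

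The 4-cell libraries held 11.2 and 23.5 M counts (M, mega) and the early 8-cell libraries 11.7 and 12.9 M, within 3.20 to 24.8 M over the series. Levels are in CPM, the count relative to the scaled library total, given as replicates 1 and 2 of each stage. CPM give shares of a library, so fewer cells of a type and less RNA per cell cannot be told apart. Embryo genes were detected throughout, with Dppa3 at 9712 and 8594 CPM at the 4-cell stage and 8871 and 10304 CPM at the early 8-cell stage. The embryo marker Zar1, a maternal transcript, was near the detection limit, at 0.624 and 0.0461 CPM and then 0.891 and 0.0901 CPM. Markers of other cells summed to 46.1 to 64.1 CPM for cumulus and granulosa cells (8 of 18 genes at 0 in all 4 libraries), most of it from Amhr2 at 44.4 to 60.4 CPM. They summed to 27.1 to 35.7 CPM for sperm (7 of 15 at 0), 12.6 to 21.2 CPM for blood (10 of 17 at 0) and 5.81 to 12.4 CPM for fibroblasts and skin (9 of 18 at 0). Of the defining markers of these cells, Fshr, Tnp1, Ptprc, Hba-a1, Hbb-bs, Dcn and Krt5 had no count in the 4 libraries. The others had counts, summed over the 4-cell and then the early 8-cell libraries. These were 33 and 5 for Prm2, 2 and 7 for Prm1, 29 and 0 for Col1a1, and 6 and 6 for Krt14. They were 7 and 0 for Lyz2, 3 and 2 for Amh, 3 and 0 for Cyp19a1, and 1 and 0 for Foxl2.

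A fault in the deposited count table bears on which rows were tested and on how many were called. Its 25208 rows are sorted by symbol with hyphens and dots ignored. In the 12 libraries of 8-cell embryos, the values of 812 rows (3.22%, in 35 stretches such as those of the H2, Stk, Defa and Vmn genes) stood in the order of a sort that keeps hyphens, and so beside the wrong symbols. Over these rows, across genes, the control stage means correlated at 0.420 as deposited and at 0.981 once the 8-cell values were moved to the order of that other sort, and 52 rows against 0 differed by more than 3 on the log2(CPM + 1) scale. Pearson correlations with the 4-cell mean gave the same split library by library. For 8-cell libraries they were 0.405 to 0.432 as deposited and 0.948 to 0.984 re-matched. For 4-cell libraries they were 0.965 to 0.981 as deposited and 0.403 to 0.415 re-matched. For late 2-cell libraries they were 0.831 to 0.852 as deposited and 0.380 to 0.391 re-matched. Transcript lengths implied by counts over FPKM came within 2-fold of the annotated length for 84.4% of 45 such genes in 2-cell and 4-cell libraries. In 8-cell libraries they did so for 53.3% under the deposited symbol and for 82.2% under the re-matched one. The 812 rows were left out, which was decided after seeing the data. With them, 187 of 16603 genes tested (1.13%) were called between the control stages, 97 of them in displaced rows.

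**Figure D1:**
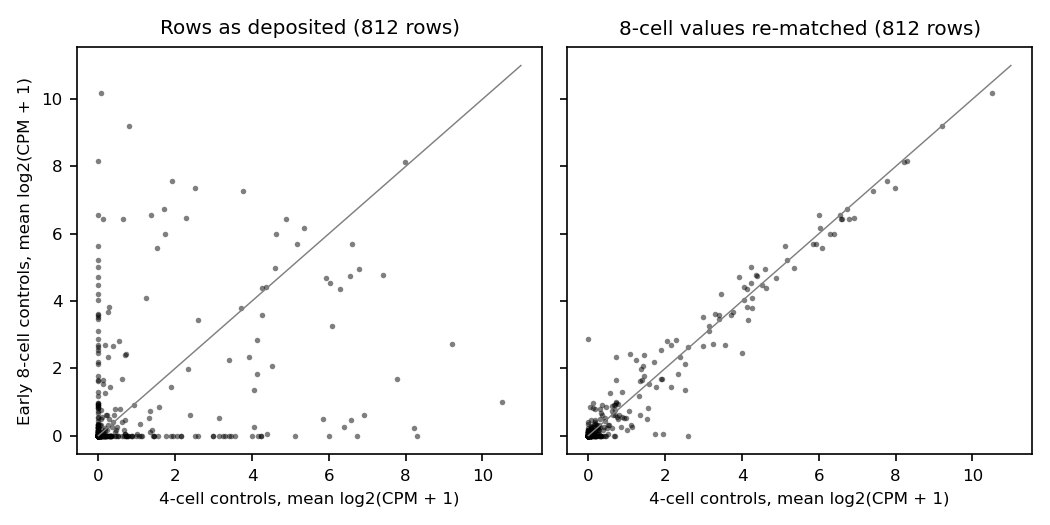
Mean log2(CPM + 1) of the 4-cell controls (horizontal axis) against the early 8-cell controls (vertical axis), with each point a row of the table. Only the 812 rows whose place differs between the sort orders are drawn. They scatter widely as deposited (r = 0.420) and lie along the diagonal when re-matched (r = 0.981).

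By the test used here, few transcripts differed between the stages beyond the spread of these libraries. Of 16394 genes tested, 32 passed at an adjusted p under 0.05 (0.195%), with 20 higher (0.122%) and 12 lower (0.0732%) at the early 8-cell stage (edgeR quasi-likelihood test, Benjamini-Hochberg adjustment). The number depended on the method, since DESeq2 called 123 higher and 131 lower, and edgeR without the low-count filter 216 and 320. At an unadjusted p under 0.05 there were 2015 genes (12.3%), of which 958 were higher (5.84%) and 1057 lower (6.45%). Both early 8-cell libraries stood above both 4-cell libraries for 2289 genes (14%) and below them for 2109 (12.9%), and 11996 genes overlapped. The intervals on either side, tested in the same fit and sharing these libraries, gave many more calls. From the late 2-cell to the 4-cell stage 4470 genes rose (27.3%) and 5612 fell (34.2%), and from the early to the late 8-cell stage 2479 rose (15.1%) and 1846 fell (11.3%).

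The 2 libraries of the 4-cell stage differed from each other as much as libraries of different stages did. Over 7068 genes at a mean of 10 CPM or more, the median absolute log2 difference was 0.400 between the 4-cell replicates and 0.282 between the early 8-cell replicates. From early 8-cell replicates 1 and 2, 4-cell replicate 1 differed by 0.238 and 0.269 and 4-cell replicate 2 by 0.392 and 0.368. Replicate 2 of the 4-cell stage held less of the ribosomal and respiratory transcripts and more of some maternal ones. It was above replicate 1 for 1 of 79 cytosolic ribosomal protein genes (median log2 difference -0.44) and for 5 of 78 respiratory chain genes (-0.52). It was above replicate 1 for 38 of 58 maternal transcripts (0.29) and for 29 of 41 genes of 2-cell genome activation (0.47), against 7750 of all 16394 genes tested. The summed level of the maternal list was lower in replicate 2, at 10354.5 CPM against 11455.5 CPM in replicate 1, but most of it was Dppa3. That gene read 8594 CPM in replicate 2 and 9712 CPM in replicate 1, so the sum mainly follows Dppa3. Btg4, an adaptor for the clearance of maternal mRNA, read 10.5 and 41.8 CPM at the 4-cell stage and 8.22 and 10.004 CPM at the early 8-cell stage. Xist, the RNA that silences an X chromosome in female embryos, read 73.3 and 0.369 CPM and then 98.4 and 121 CPM. The part of these differences in the results was not tested.

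Calls depended on which library was left out. Without replicate 2 of the 4-cell stage, 2 genes passed and neither was among the 32, while without replicate 1 of that stage 786 passed, all 32 among them. Without replicate 1 or 2 of the early 8-cell stage, 19 and 33 genes passed, of which 9 and 13 were among the 32, and an edgeR fit to the 4 libraries alone called 0 (428 at an unadjusted p under 0.05, lowest adjusted p 0.269).

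**Figure D2:**
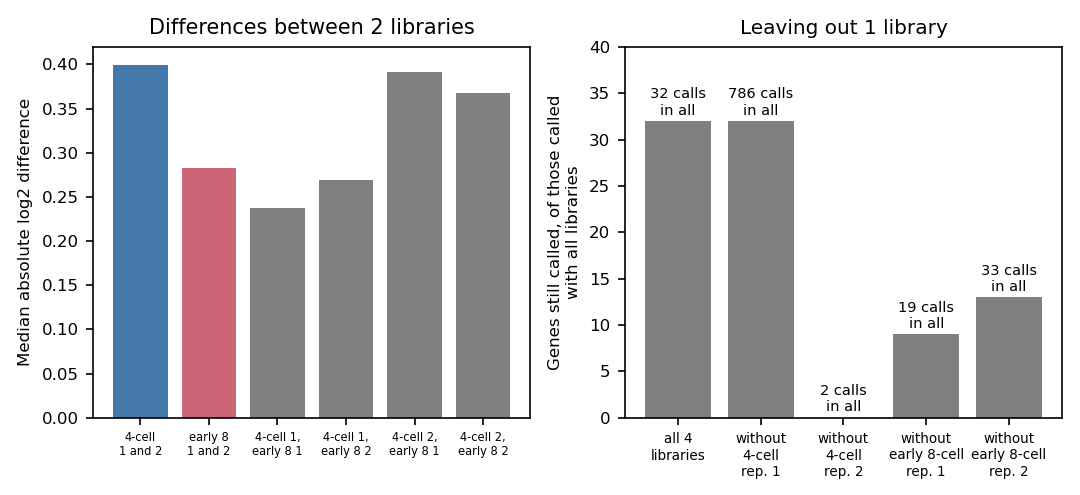
Left, median absolute log2 difference over 7068 genes between 2 libraries, for the replicates of each stage (0.400 and 0.282) and for the 4 pairs across stages (0.238 to 0.392), with the pairs that hold 4-cell replicate 2 the highest across stages. Right, how many of the 32 called genes kept the call with all libraries and with each library left out, where leaving out replicate 2 of the 4-cell stage kept 0.

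Of the 32 called genes, 6 reached 10 CPM in their higher group, and the median level of the higher group was 3.31 CPM. Id3, Ckb, Hpdl and Pqlc3 rose and Mterf1a and Cfap300 fell. The 250 bases before the RefSeq start of Id3, Ckb and Mterf1a are shown (GRCm38.p6, 5′ to 3′ on the strand of the gene) because, of these 6 genes, they are the ones whose windows hold a motif searched for, while the windows of Hpdl, Pqlc3 and Cfap300 held none. Capitals mark letters of 5 motifs found on either strand, which are the TFAP2, TEAD, CCAAT box, TATA box and cAMP response element motifs spelled out in the next paragraph. In Ckb the CCAAT letters farther from the start directly adjoin TEAD letters.
Id3, chr4:136143572-136143821, plus strand: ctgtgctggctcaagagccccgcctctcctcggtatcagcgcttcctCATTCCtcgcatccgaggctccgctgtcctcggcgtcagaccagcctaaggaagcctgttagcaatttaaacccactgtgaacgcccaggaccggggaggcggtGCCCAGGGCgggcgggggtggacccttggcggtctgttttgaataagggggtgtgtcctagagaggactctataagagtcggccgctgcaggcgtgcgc
Ckb, chr12:111672339-111672588, minus strand: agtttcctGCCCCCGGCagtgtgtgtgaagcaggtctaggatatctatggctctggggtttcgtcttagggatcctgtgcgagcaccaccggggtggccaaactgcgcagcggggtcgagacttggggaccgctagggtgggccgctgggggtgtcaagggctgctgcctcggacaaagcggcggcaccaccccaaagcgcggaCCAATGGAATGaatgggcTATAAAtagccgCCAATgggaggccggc
Mterf1a, chr5:3893934-3894183, minus strand: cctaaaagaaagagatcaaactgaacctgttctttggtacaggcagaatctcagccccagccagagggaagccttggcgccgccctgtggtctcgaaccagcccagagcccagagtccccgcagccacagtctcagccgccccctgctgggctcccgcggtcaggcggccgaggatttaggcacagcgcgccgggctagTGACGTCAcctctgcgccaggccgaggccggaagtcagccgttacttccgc

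The share of promoters that hold each motif differed widely. Of 16394 genes tested, 12874 had a 300-base promoter entry (250 bases before to 50 after the start), and so did 27 called genes, 15 higher and 12 lower. Searched on both strands, the TFAP2 motif GCCNNNGGC stood in 3 of the 15, 3 of the 12 and 23.7% of all, and the TEAD motif GGAATG in 4, 2 and 12.5%. The CCAAT box stood in 5, 1 and 39.02%, the TATA box motif TATAAA in 2, 0 and 8.14%, and the cAMP response element TGACGTCA in 0, 1 and 2.99%. The KLF motif GGGCGTGG stood in 1, 1 and 9.21%, the E2F motif TTTCGCGC in 1, 0 and 0.528%, and the NR5A2 motif TCAAGGTCA in 0, 0 and 0.295%. GC content of the 250 bases was 62.8% for Id3 and for Ckb and 64.4% for Mterf1a, against a median of 58.8% over the tested genes.

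Id3 encodes a helix-loop-helix protein without a DNA-binding region, which holds basic helix-loop-helix factors inactive and is induced by BMP signals. It read 57.6 and 68.6 CPM at the 4-cell stage and 239 and 332 CPM at the early 8-cell stage. The stages did not overlap, and Id3 rose by 2.18 ± 0.29 on the log2 scale (± SE throughout, edgeR adjusted p = 0.0111). Id3 stood at 11.1 and 8.40 CPM in late 2-cell controls and at 138 and 158 CPM in late 8-cell controls, so that the highest of its control levels were those of the early 8-cell stage. With 1 library left out its change lay between 1.92 and 2.41, and without replicate 2 of the 4-cell stage its adjusted p was 0.0535. Among relatives that did not pass, Id2 read 12.4 and 1.38 CPM and then 17.3 and 12.6 CPM, and Id1 stayed at or below 2.67 CPM in all 4 libraries. Bmp4, a ligand that acts upstream of the Id genes, read 16.6 and 0 CPM and then 24.3 and 21.1 CPM (1.47 ± 1.18, edgeR adjusted p = 0.692).

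Ckb, the brain-type creatine kinase that buffers ATP with phosphocreatine, read 122 and 94.1 CPM at the 4-cell stage and 233 and 244 CPM at the early 8-cell stage. It rose by 1.14 ± 0.22 (edgeR adjusted p = 0.0440), with no overlap, and stood at 405 and 393 CPM in late 8-cell controls. Hpdl, a mitochondrial enzyme resembling hydroxyphenylpyruvate dioxygenase, read 58.7 and 52.5 CPM and then 122 and 114 CPM. Hpdl rose by 1.09 ± 0.19 (edgeR adjusted p = 0.0283) on a steady course, from 14.4 and 16.7 CPM at the late 2-cell stage to 187 and 166 CPM at the late 8-cell stage. Pqlc3, a membrane protein of the PQ-loop family, read 11.2 and 6.87 CPM and then 24.3 and 33.6 CPM (1.69 ± 0.30, edgeR adjusted p = 0.0283). Its late 2-cell controls held 0.591 and 0.525 CPM, so that Pqlc3 was nearly absent a cleavage earlier.

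Mterf1a, a mitochondrial transcription termination factor, read 10.7 and 18.7 CPM at the 4-cell stage and 3.07 and 1.17 CPM at the early 8-cell stage. It fell by 2.80 on the log2 scale (SE 0.48, edgeR adjusted p = 0.0252) without overlap. In late 2-cell controls Mterf1a held 1.85 and 1.99 CPM and in late 8-cell controls 9.14 and 13.7 CPM, so the early 8-cell level was near that of the late 2-cell stage and below both neighbouring stages. Mterf1b is a near-identical copy, and reads could be split between them in the deposited counts, which leaves the value uncertain. Cfap300, needed for assembly of the dynein arms of cilia, read 11.95 and 19.6 CPM and then 6.24 and 3.79 CPM (-1.67 ± 0.32, edgeR adjusted p = 0.0426). It had stood at 113 and 111 CPM at the late 2-cell stage and stood at 19.5 and 22.3 CPM at the late 8-cell stage.

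**Figure D3:**
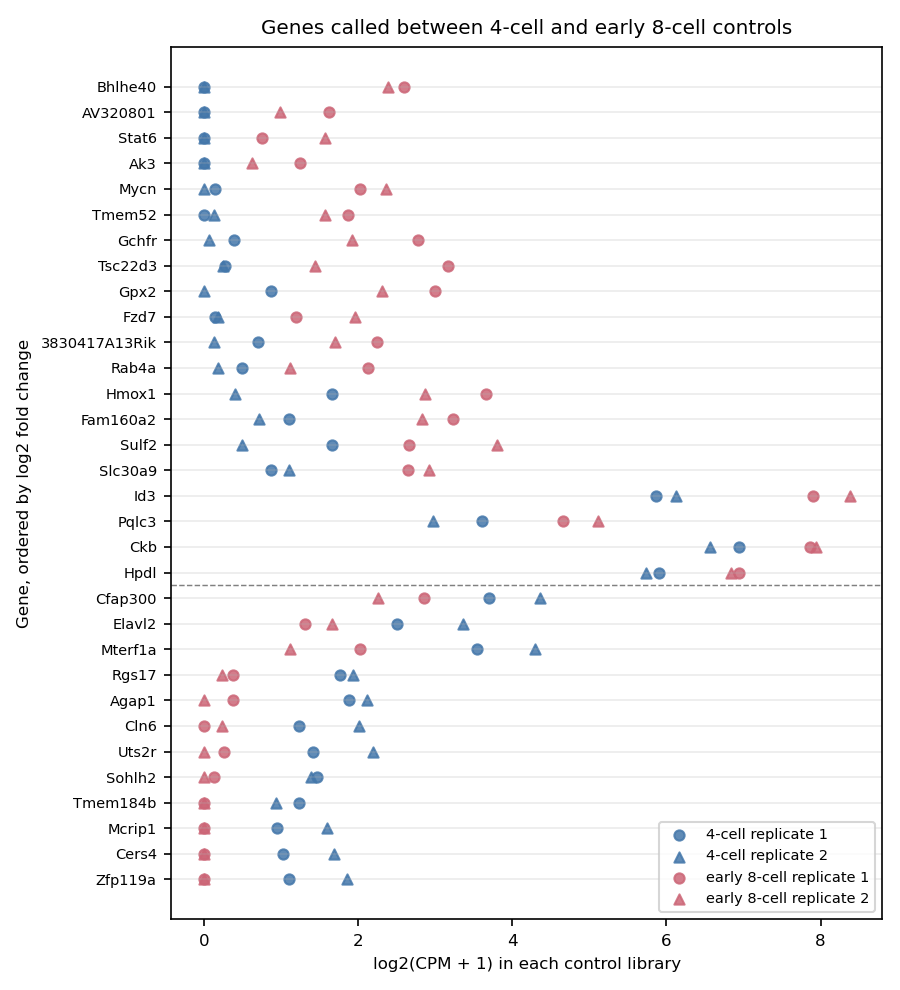
Level of each of the 32 called genes in the 4 control libraries as log2(CPM + 1), with genes ordered by fold change, colours for stages and marker shapes for replicates. The 12 genes below the dashed line were lower and the 20 above it higher at the early 8-cell stage, and in all 32 the stages do not overlap.

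The other 26 called genes stood below 10 CPM in their higher group. They lie outside the rule by which genes were named and are given because they are few, so they were chosen after their values were seen. Of the 32, 8 had no count in 1 stage and 6 had 1 to 3 counts there. Folds against a stage without counts are lower bounds at 3 counts over the group, and ratios are given with exact 95% intervals. Bounds and intervals cover counting error only.

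Bhlhe40, a repressor tied to the circadian clock, had no count at the 4-cell stage and read 5.05 and 4.24 CPM at the early 8-cell stage, at least 48.2-fold higher (edgeR adjusted p = 0.0111). It had held 34.7 and 26.4 CPM at the late 2-cell stage. Mycn, a MYC family factor, read 0.104 and 0 CPM and then 3.07 and 4.15 CPM, a ratio of 114 (19.8 to 4549) that rests on a single 4-cell count (edgeR adjusted p = 0.0353). Its relative Myc read 51.5 and 43.3 CPM and then 138 and 165 CPM, which did not pass (1.67 ± 0.41, edgeR adjusted p = 0.107) although the stages did not overlap. Stat6, which carries interleukin signals to the nucleus, read no count and then 0.693 and 1.98 CPM, at least 14.3-fold higher (edgeR adjusted p = 0.0111). Stat6 stood far higher on both sides, at 36 and 33.1 CPM in late 2-cell and 39.4 and 56.3 CPM in late 8-cell controls. Fzd7, a WNT receptor, read 0.104 and 0.138 CPM and then 1.29 and 2.88 CPM (3.95 ± 0.68, edgeR adjusted p = 0.0252). Tsc22d3, a leucine zipper protein induced by glucocorticoids, read 0.208 and 0.185 CPM and then 8.02 and 1.71 CPM (4.59 ± 0.92, edgeR adjusted p = 0.0471). Its early 8-cell replicates were far apart, yet both exceeded the 4-cell ones.

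Hmox1, the heme oxygenase induced by oxidative stress, read 2.18 and 0.323 CPM and then 11.7 and 6.31 CPM (3.13 ± 0.49, edgeR adjusted p = 0.0178). It had stood at 21.4 and 12.5 CPM at the late 2-cell stage and reached 30.04 and 30.7 CPM at the late 8-cell stage, so that the 4-cell level was the low point. Gpx2, a glutathione peroxidase, read 0.831 and 0 CPM and then 7.03 and 3.97 CPM (4.22 ± 0.69, edgeR adjusted p = 0.0225). Gchfr, the feedback regulator of the enzyme that starts tetrahydrobiopterin synthesis, read 0.312 and 0.0461 CPM and then 5.84 and 2.79 CPM (4.87 ± 0.89, edgeR adjusted p = 0.0302). Among membrane and trafficking genes, Slc30a9, of a zinc transporter family, rose by 2.53 ± 0.44, the recycling endosome GTPase Rab4a by 3.22 ± 0.56, and Fam160a2, of a vesicle adaptor complex, by 3.06 ± 0.54 (edgeR adjusted p = 0.0252 for Fam160a2). Sulf2, which trims sulfate from heparan chains outside the cell, read 2.18 and 0.415 CPM and then 5.35 and 12.98 CPM (2.98 ± 0.59, edgeR adjusted p = 0.0471). Ak3, a mitochondrial adenylate kinase, was at least 9.84-fold higher and AV320801 at least 15.8-fold higher, both without a 4-cell count. Tmem52 had a ratio of 36.2 (9.495 to 307), and 3830417A13Rik rose by 3.38 ± 0.63.

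Lower at the early 8-cell stage was Rgs17, which shortens G protein signals, at 2.39 and 2.81 CPM and then 0.297 and 0.180 CPM (-3.42 ± 0.64, edgeR adjusted p = 0.0353). Uts2r, the urotensin receptor, read 1.66 and 3.60 CPM and then 0.198 and 0 CPM, a ratio of 31.8 (8.57 to 267). Agap1, a GTPase-activating protein for ARF, read 2.70 and 3.32 CPM and then 0.297 and 0 CPM, a ratio of 22.1 (7.35 to 109, edgeR adjusted p = 0.0154). Sohlh2, a factor of early oocytes and spermatogonia, read 1.77 and 1.61 CPM and then 0.0990 and 0 CPM, a ratio of 35.2 (6.05 to 1417). In late 8-cell controls Sohlh2 stood at 13.1 and 15.1 CPM, above its 4-cell level. Elavl2, an RNA-binding protein of oocytes and neurons, read 4.68 and 9.32 CPM and then 1.49 and 2.16 CPM (-1.96 ± 0.39, edgeR adjusted p = 0.0471), after 229 and 219 CPM at the late 2-cell stage. Mcrip1, Zfp119a, Cers4 and Tmem184b had no count at the early 8-cell stage. Late 8-cell controls held 2.43 and 1.55 CPM of Mcrip1 and 4.70 and 3.49 CPM of Zfp119a. They held 2.79 and 3.99 CPM of Cers4 and 2.06 and 1.61 CPM of Tmem184b. Mcrip1, a partner of a transcriptional corepressor, was at least 11.96-fold lower, and the ceramide synthase Cers4 at least 13.1-fold lower. The zinc finger gene Zfp119a was at least 15.3-fold lower, with reads that may be split with its close copy Zfp119b, and Tmem184b was at least 7.45-fold lower. Cln6, of the endoplasmic reticulum, had a ratio of 26.7 (7.16 to 225). From the early to the late 8-cell stage, 11 of the 12 lower genes were called higher and 1 was not called (edgeR). Over all genes tested 15.1% were called higher in that interval, which shares the early 8-cell libraries.

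Lists of genes with a known role were described by the share of members whose libraries did not overlap, against 14% higher and 12.9% lower over all genes, and by their median, against 0.00. Of 42 lists, 38 held no called member, and 5 of the 32 called genes stood in a list. Trophectoderm genes leaned upward, with 19 of 39 tested members (48.7%) higher in both early 8-cell libraries and 2 (5.13%) lower, a median of 0.61, and 0 called (edgeR). At an unadjusted p under 0.05 by edgeR, 12 of the 39 were higher and 5 lower, against 5.84% and 6.45% of all genes tested. Both directions thus lay above the share over all genes. Their summed level was 1896 and 1446 CPM and then 2297 and 2301 CPM. The median was 0.26 without replicate 2 of the 4-cell stage and 1.12 without replicate 1, and in replicate 2 of that stage 10 of the 39 were above replicate 1.

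Single trophectoderm genes fell short of the threshold, and those named here outside the naming rule were chosen after their values were seen. Hand1, a factor of giant cells of the placenta, read 71.8 and 40.5 CPM and then 166 and 162 CPM (1.55 ± 0.32, edgeR adjusted p = 0.0535). Krt8, a keratin of the trophectoderm, read 12.8 and 4.71 CPM and then 41.7 and 20.3 CPM (1.87 ± 0.50, edgeR adjusted p = 0.150), and 151 and 188 CPM at the late 8-cell stage. Both showed no overlap between the stages. Eomes, a T-box factor of trophoblast stem cells, read 0.104 and 0.0923 CPM and then 2.18 and 1.62 CPM (4.17 ± 0.93, edgeR adjusted p = 0.0733). Cdx2, the trophectoderm homeobox gene, read 0 and 0.323 CPM and then 1.98 and 1.62 CPM (3.12 ± 1.15, edgeR adjusted p = 0.278), still well below its 15.8 and 14 CPM at the late 8-cell stage. Gata3 read 14.2 and 3.04 CPM and then 24.5 and 26 CPM, and Tead4 128 and 105 CPM and then 156 and 217 CPM, neither with overlap or a call (edgeR adjusted p = 0.342 and 0.308). The most abundant member, Sfn, a 14-3-3 protein of epithelia, read 454 and 296 CPM and then 511 and 497 CPM. Cited2, Cldn7, Fgfr2, Atp1b1 and Aqp3 also had both early 8-cell libraries above, while Tfap2c (115 and 143, then 113 and 159 CPM) and Krt18 (19.2 and 5.17, then 31.4 and 4.96 CPM) overlapped. The 2 members that were lower without overlap, and the 5 lower at an unadjusted p under 0.05 by edgeR, are not named in this paragraph. The genes named were thus picked mostly from the higher side and do not stand for the list. At that unadjusted threshold both directions lay above the share over all genes. The lowest log2 fold change in the list was -5.99.

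Pluripotency and inner cell mass genes leaned the same way with a smaller median. Of 39 tested, 1 was called (Mycn), 13 (33.3%) were higher and 3 (7.69%) lower without overlap, and the median was 0.38, or 0.27 to 0.58 with 1 library left out. None of the central factors passed. Pou5f1 read 61.4 and 30.03 CPM and then 78.0 and 53.9 CPM (0.54 ± 0.43), Nanog 87.7 and 67.5 CPM and then 89.2 and 74.2 CPM (0.08 ± 0.49), and both overlapped. Sox2 was near the detection limit, with 4 counts at the 4-cell stage and 9 at the early 8-cell stage. Klf5, a factor of both early lineages, read 89.4 and 79.4 CPM and then 105 and 131 CPM, and Esrrb, an orphan nuclear receptor, 26.2 and 37.2 CPM and then 40.5 and 73.0 CPM, neither with a call. Nr5a2, a nuclear receptor of genome activation, read 233 and 246 CPM and then 198 and 219 CPM. Gata6, which opens primitive endoderm, read 71.3 and 25 CPM and then 58.9 and 99.5 CPM, and primitive endoderm genes had a median of 0.00 over 23 tested.

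Signalling and adhesion lists had smaller medians, which rested on single libraries. Of 46 BMP, Nodal and WNT genes 2 rose (Id3 and Fzd7), 13 (28.3%) were higher and 4 lower without overlap, and the median was 0.21 (0.00 to 0.28 with 1 library left out). Hippo pathway genes had 7 of 27 (25.9%) higher and 3 (11.1%) lower, with a median of 0.24 that was -0.03 without early 8-cell replicate 2 and 0.44 without 4-cell replicate 1, among them Wwtr1, the TAZ co-activator, at 69.3 and 62.8 CPM and then 97.0 and 122 CPM. Polarity and adhesion genes had 13 of 52 (25%) higher and 7 (13.5%) lower, with a median of 0.15 (0.00 without early 8-cell replicate 2, 0.27 without 4-cell replicate 1), and Cdh1, the cadherin of compaction, overlapped at 76.2 and 37.4 CPM and then 62.6 and 101 CPM. FGF receptor and ERK feedback genes had 10 of 31 (32.3%) higher and 6 (19.4%) lower, both above the background, with a median of 0.03 (-0.07 without 4-cell replicate 1, 0.28 without 4-cell replicate 2). Within the FGF list the ERK-induced phosphatase Dusp6 read 27.7 and 1.38 CPM and then 85.4 and 60.6 CPM, so that the 4-cell replicates differed most. None of these 3 last lists held a called gene.

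**Figure D4:**
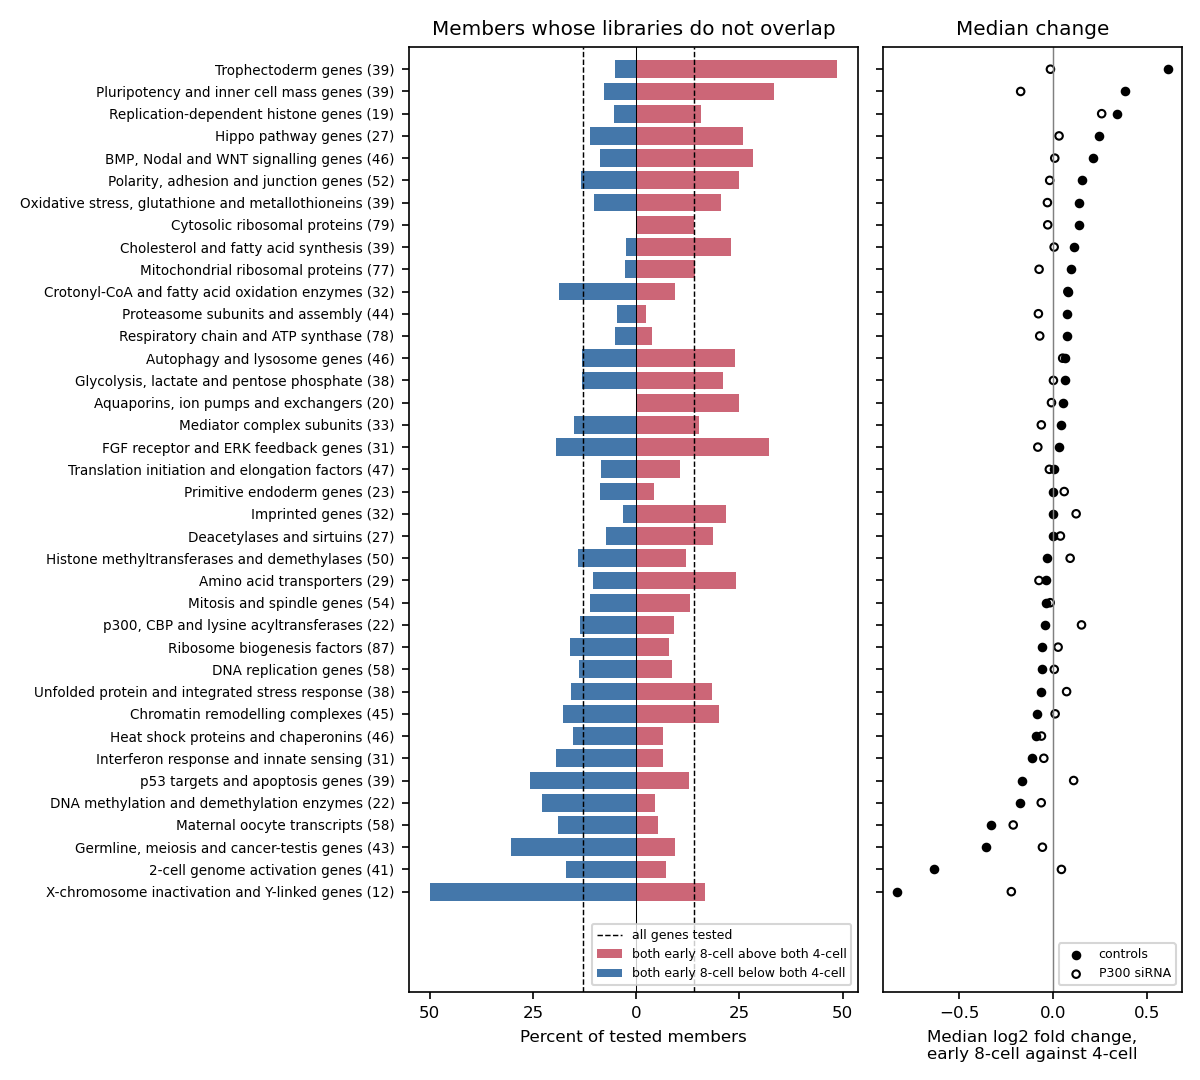
Gene lists with the number of tested members. Left, percent of members with both early 8-cell libraries above (right of 0) or below (left of 0) both 4-cell libraries, with dashed lines at 14% and 12.9% for all genes; right, median log2 fold change in control (filled) and P300 siRNA embryos (open). Trophectoderm genes reach 48.7% on the higher side, and the largest negative median is that of X-inactivation and Y-linked genes at -0.83 (-0.43 without 4-cell replicate 2). In the latter list the members lower without overlap were all Y-linked.

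Oocyte and early transcripts had negative medians that rested on single libraries. Of 58 maternal transcripts 0 were called (edgeR), 3 (5.17%) were higher and 11 (18.97%) lower without overlap, and the median was -0.33. It was -0.03 without replicate 2 of the 4-cell stage and -0.72 without replicate 1 of the early 8-cell stage. In the preceding interval, which shares the 4-cell libraries, 49 of the 58 had fallen, with a median of -4.15. Over all genes tested 34.2% had fallen in that interval, with a median of -0.40. Ooep, of the subcortical maternal complex, read 7.69 and 12.5 CPM and then 3.76 and 1.89 CPM (-1.85 ± 0.46, edgeR adjusted p = 0.107), and Zp3, of the egg coat, overlapped at 43.4 and 19.6 CPM and then 47.9 and 22.2 CPM. Genes of 2-cell genome activation had a median of -0.63 over 41 tested, with 3 (7.32%) higher and 7 (17.1%) lower and 0 called, and the median was of the other sign, 0.16, without replicate 2 of the 4-cell stage. Zscan4d, of the 2-cell burst, was down to 2.81 and 1.94 CPM and then 3.96 and 2.61 CPM, from 160 and 119 CPM at the late 2-cell stage.

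Germline and meiosis genes had 1 fall (Sohlh2) among 43, with 4 higher and 13 (30.2%) lower without overlap, and a median of -0.36 (-0.15 without 4-cell replicate 2, -0.47 without early 8-cell replicate 2). Their summed level was 738 and 878 CPM and then 643 and 586 CPM, so the stages did not overlap. Dazl, a translation regulator of germ cells, read 11.6 and 12.5 CPM and then 4.65 and 3.51 CPM (-1.57 ± 0.49, edgeR adjusted p = 0.198), and Mael, of transposon silencing, 17 and 32.2 CPM and then 12.3 and 10.5 CPM. Neither passed, and both were without overlap. Of 39 p53 targets and apoptosis genes 0 were called, 5 were higher and 10 (25.6%) lower, with a median of -0.17, which was -0.00071 without 4-cell replicate 1. Ccng1, a cyclin induced by p53, read 103 and 41 CPM and then 26.1 and 31.4 CPM (-1.31 ± 0.36, edgeR adjusted p = 0.150), and the p53 inhibitor Mdm2 read 105 and 182 CPM and then 78.6 and 96.6 CPM. Of 39 oxidative stress genes Hmox1 alone was called, with 8 higher and 4 lower and a median of 0.14 (0.0054 without 4-cell replicate 2, 0.48 without 4-cell replicate 1).

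No gene of growth and division passed. Over 9 lists of respiration, ribosomes and their assembly, translation, proteasome, chaperones, DNA replication and mitosis, 0 of 570 tested members were called. Over all genes tested the share called was 0.195%, so low that 0 calls here says little about these lists. Of the 570, 470 overlapped between stages, against 11996 of 16394 over all genes tested, and the list medians lay between -0.09 and 0.14. The summed level of cytosolic ribosomal protein genes was 87867 and 64781 CPM and then 85982 and 83409 CPM, so that replicate 2 of the 4-cell stage stood apart from the other 3 libraries. Their median of 0.14 became -0.07 without that library and 0.40 without replicate 1, and the respiratory chain median of 0.07 became -0.16 and 0.37. Npm1, of the nucleolus, overlapped at 4413 and 3441 CPM and then 4060.04 and 4007 CPM, as did Ccnb1, the mitotic cyclin, at 4672 and 5196 CPM and then 4673 and 5296 CPM. Glycolysis genes had 8 of 38 higher and 5 lower, a median of 0.06 and 0 called. Pkm, which ends glycolysis, read 24.9 and 34.6 CPM and then 19.01 and 13.6 CPM (-0.87 ± 0.24, edgeR adjusted p = 0.150). The 15 other lists outside the marker genes, on chromatin, metabolism, stress and immunity, had medians from -0.18 for DNA methylation enzymes to 0.34 for replication-dependent histone genes, and 0 called. The upper end rested on single libraries, since the histone median was -0.0051 without early 8-cell replicate 1 and 0.92 without 4-cell replicate 1. The DNA methylation median stayed negative with any 1 library left out, from -0.46 without early 8-cell replicate 2 to -0.11 without 4-cell replicate 2.

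X-inactivation and Y-linked genes had a median of -0.83 over 12 tested, with 2 higher and 6 lower and 0 called (edgeR). The 6 lower were all Y-linked (Eif2s3y, Ddx3y, Kdm5d, Zfy1, Zfy2 and Uba1y), and the 2 higher were the X-linked Xist and Rlim. The list thus pools sets that moved in opposite directions, and its median mainly follows the Y-linked members. The median was -0.43 without 4-cell replicate 2 and -1.12 without early 8-cell replicate 2. Xist did not pass (1.60 ± 0.93, edgeR adjusted p = 0.519), and the low library was replicate 2 of the 4-cell stage. The Y-linked translation factor Eif2s3y read 82.2 and 131 CPM and then 59.7 and 59.7 CPM (-0.84 ± 0.36, edgeR adjusted p = 0.342). Ddx3y, a Y-linked RNA helicase, read 48.3 and 35.6 CPM and then 18.5 and 28.7 CPM. Eif2s3y and Ddx3y were present in all 4 libraries, and the share of female embryos in each library is not in the labels. Stage and embryo sex can therefore not be told apart for the genes of this list.

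The same interval in P300 siRNA embryos, whose 4 libraries share none with the controls, gave 0 calls of 16394 (0%) by edgeR and by DESeq2, with 537 genes at an unadjusted p under 0.05 by edgeR. Of the 20 genes that rose in controls, siRNA changes ranged from -1.44 to 1.498 with a median of 0.13, and of the 12 that fell from -1.40 to 0.76 with a median of -0.03. The direction was the same in 18 of the 32, and none passed there. The test of the difference between the siRNA and the control change called 0 genes (0%) by edgeR, with a lowest adjusted p of 0.0954 and 1239 genes at an unadjusted p under 0.05, and 34 by DESeq2. The trophectoderm median was -0.01 in siRNA embryos, the pluripotency median -0.17, and the medians of maternal and 2-cell genes -0.21 and 0.04.

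Ep300, the target of the siRNA, read 48.6 and 89.0 CPM and then 41.8 and 83.3 CPM in controls, and 11.5 and 19.2 CPM and then 11.8 and 16.5 CPM in siRNA embryos. It overlapped between the stages in both, and lay lower in every siRNA library. Id3 read 22.02 and 14.5 CPM and then 31.7 and 17.3 CPM in siRNA embryos (0.44 ± 0.30), below every control library of these stages. Hpdl stood at 28.5 and 29.3 CPM and then 28.7 and 30.6 CPM (0.04 ± 0.20), and so at about the same level at both stages. Pqlc3 read 12.5 and 11 CPM and then 8.83 and 10.04 CPM (-0.31 ± 0.30), and Ckb 123 and 147 CPM and then 170 and 157 CPM (0.28 ± 0.22). Mterf1a, lower in early 8-cell controls, read 20.9 and 21.4 CPM and then 14 and 22 CPM in siRNA embryos (-0.23 ± 0.43). Hmox1 and Stat6 were not low at the 4-cell stage of siRNA embryos, at 22.2 and 25 CPM and at 13.04 and 16.8 CPM. None of these siRNA changes passed, and none of the differences from the controls did.

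**Figure D5:**
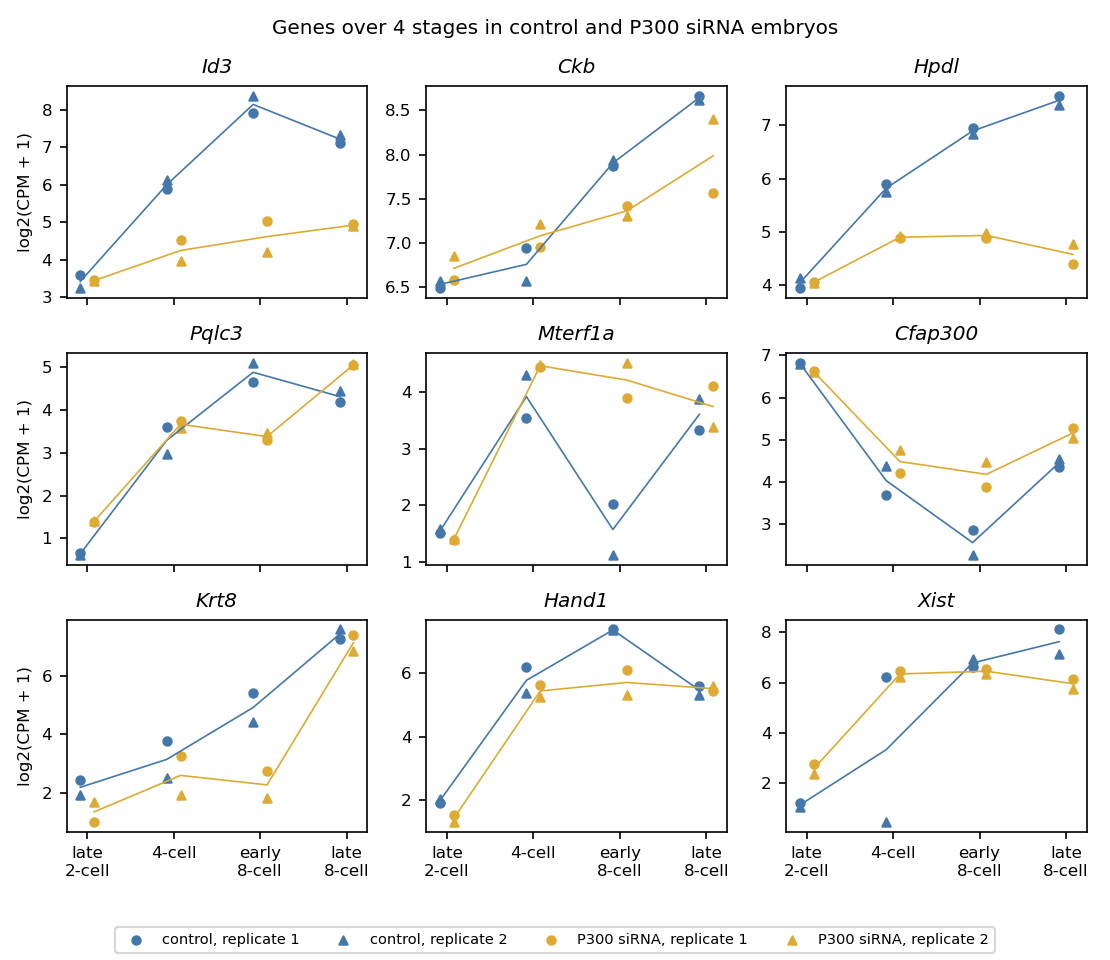
Level as log2(CPM + 1) of 9 genes over 4 stages, with control and P300 siRNA embryos in separate colours, replicates 1 and 2 as circles and triangles, and lines through the means. Id3 peaks in early 8-cell controls at 239 and 332 CPM, Mterf1a is low there at 3.07 and 1.17 CPM, and Xist shows the low 4-cell control library at 0.369 CPM.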

How the data were processed

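Counts per gene were deposited by the authors without normalisation, and FPKM values (scaled to length and depth) were deposited by the authors in a second table. Tools credited in the submitters' processing notes were HISAT2 2.2.1 and cutadapt 4.1, besides bcl2fastq 2.20.0.422 and Cufflinks 2.2 (genome mm9), without settings, strand or the counting tool. Reads of overlapping or antisense genes can therefore not be told apart. The FPKM column of early 8-cell control replicate 2 correlated with its own counts at 0.882 across 7134 genes (19 other libraries at least 0.992), and best matched the counts of P300 siRNA early 8-cell replicate 2 (0.955). FPKM therefore served only as an alternative and in the length check.

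Rows displaced in the 8-cell columns were left out. Counts were fitted with edgeR 4.0.16 in R 4.3.3: default low-count filter, TMM scaling, 1 coefficient for each of the 10 groups in all 20 libraries, 10 residual and 8.01 prior degrees of freedom, two-sided quasi-likelihood F test, Benjamini-Hochberg adjustment over 16394 genes, calls under 0.05. CPM use the TMM-scaled sizes, and an SE is the fold change over the square root of F. Each count's precision is limited by depth. Members and the 42 lists were chosen with earlier results of these data known. Genes were named by a rule: called with at least 10 CPM and without overlap, up to 12 largest changes and 8 largest differences each way, up to 3 called members or the most abundant member of a list, and 13 genes always followed (not every such list member is printed). Of the listed genes, Zscan4e, Duxf3, Eif1ad7, Noc2l, Polr1f and Rhox5 matched no symbol. Promoters came from RefSeq tables, matched by symbol. Alternatives were DESeq2 1.42.0 (size factors, Wald test), limma 3.58.1 on log2(FPKM + 1), no filter, a minimum log2 fold change of 1, a replicate block, fewer libraries in the fit, and each library left out. Added after seeing the data were the table as deposited and the re-matched 8-cell columns.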

Additional observations from a re-analysis of the deposited data

How the results depend on the processing

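Against 20 higher and 12 lower calls in controls, 0 in siRNA embryos and 0 for their difference, the alternatives gave the following. DESeq2's Wald test called 123 and 131 in controls and 34 differences, all 32 main calls included. Without the low-count filter there were 216 and 320 calls in controls, 29 and 24 in siRNA embryos and 276 differences. With only the libraries compared, controls had 0 and 0, as with the 8 control libraries alone (1595 genes at an unadjusted p under 0.05). limma on FPKM, where 1 column does not match its counts, called 5 higher (Gchfr, Gpx2, Hmox1, Ifi30 and Rab4a) and 0 lower. As deposited, displaced rows brought controls to 103 and 84 and siRNA embryos to 45 and 37, and all 82 siRNA calls were in displaced rows. DESeq2 size factors gave 21 and 13, a minimum log2 fold change of 1 gave 20 and 12, and re-matching 23 and 13, adding Sh3gl2, Slc25a37, Tax1bp3 and Vmn2r13. The causes were not tested.

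With 1 library left out, higher calls ranged from 1 (Aldh6a1) to 443 and lower calls from 1 (Eda2r, without 4-cell replicate 2) to 343, both highest without 4-cell replicate 1. Without early 8-cell replicate 2 there were 2 lower (Mbd1 and Sufu). In siRNA embryos the ranges were 0 to 2 (Nav1 and Tent5c) and 0 to 1 (Pdpn or Gm9376), and for the difference 0 to 189 (Stat6 where 1). The correlation of deviations between replicates at the 2 stages was 0.0253 in controls and 0.423 in siRNA embryos. Each value rests on 2 pairs, which do not settle whether replicate numbers pair the libraries. A replicate block gave 17 higher and 12 lower calls in controls, 27 of the 32 among them, 0 and 0 in siRNA embryos and 0 differences.

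The called genes kept their direction wherever they gave a value, except under limma on FPKM. Stat6, Mcrip1 and Ak3 gave none with only the libraries compared, and Fam160a2 none under limma. Under limma Mcrip1 was 0.0768 and Zfp119a 0.31. Of genes without a call, limma reversed Pou5f1 (-0.98), Nanog (-0.17), Gata6 (-0.0322), Tead4 (-0.83), Tfap2c (-0.48) and Cdh1 (-0.64). With 1 library left out, Tfap2c ranged from -0.19 (early 8-cell replicate 2) to 0.32, Ep300 from -0.72 to 0.36 (4-cell replicate 2), Nanog from -0.10 (4-cell replicate 2) to 0.29 and Zp3 from -0.49 (early 8-cell replicate 1) to 0.85. Under limma on FPKM the medians were -0.01 for trophectoderm, -0.24 for pluripotency, -0.19 for Hippo and 0.36 for germline genes. List medians moved beyond the replicate spread in 90 of 546 alternative values. With 2 libraries a stage and most calls under 10 CPM, a gene without a call is not shown to be unchanged.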

Other observations

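Some genes of interest stood in displaced rows and were read only after re-matching the 8-cell columns, so their values depend on that step. H2az1, the histone variant H2A.Z, read 1648 and 1585 CPM at the 4-cell stage and 1491 and 1229 CPM at the early 8-cell stage (-0.25 ± 0.17, edgeR adjusted p = 0.591). Tdgf1, the Nodal co-receptor, read 81.9 and 61.4 CPM and then 155 and 75.7 CPM (0.69 ± 0.46). Stk4, a Hippo kinase, read 74.8 and 74.8 CPM and then 52.3 and 56.97 CPM (-0.45 ± 0.21), and its partner Stk3 4.55 and 6.98 CPM and then 5.91 and 6.10 CPM. The class I histocompatibility genes read 25.1 and 15.5 CPM and then 51.6 and 25.3 CPM for H2-D1, and 22.8 and 11.01 CPM and then 47.6 and 17.9 CPM for H2-K1. None of these 6 passed. Vmn2r13 alone of the displaced rows passed when re-matched (edgeR adjusted p = 0.0293), from 0 counts to 6.10 and 8.88 CPM, while Vmn2r126 in the same stretch went from 4.24 and 7.34 CPM to 0 (edgeR adjusted p = 0.0598), so the order within that stretch remains uncertain.

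Tax1bp3, a PDZ protein that binds beta-catenin, missed the threshold most narrowly of the genes with ample counts examined here, at 17.7 and 19.6 CPM and then 35.9 and 41.6 CPM (1.06 ± 0.21, edgeR adjusted p = 0.0511).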
